A study of Mus musculus with 4 samples.

Results

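The genes of the cytosolic and mitochondrial heat shock chaperone system followed here were Hspa8, Bag3, Hsph1, Hspb1, Hsp90aa1, Hsp90ab1, Dnaja1, Dnajb1, Hspd1 and Hspe1. Every probe whose platform symbol was 1 of these 10 was taken, which gave 13 probes for 9 genes, out of 25697 probes and 16593 genes on each array. No probe carried the symbol Hsp90ab1, and this gene was not analysed here. Fibroblasts given microvesicles, which had been purified from cardiomyocyte culture medium (2 arrays), were compared with control fibroblasts (2 arrays). All cells were NIH-3T3, an immortalized mouse embryonic fibroblast line, and the labels describe culture in Claycomb medium, a medium made for cardiomyocytes. Microvesicles are small membrane-bound particles shed by cells, and the comparison addressed how their transfer changed gene expression in the receiving cells. The labels give neither the amount of microvesicles, nor the length of exposure, nor what the control cells received in their place. They also do not say that replicates were grown separately, and p-values therefore cover only the spread between arrays, which may be technical.

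Heat shock proteins are molecular chaperones that bind unfolded proteins and help them fold, reassemble or be degraded. Proteins of the Hsp70 class work in cycles of ATP use, with J-domain proteins that deliver the substrate and nucleotide exchange factors that release it, and pass some clients on to Hsp90. Hsp60 and Hsp10 form a folding chamber in the mitochondrial matrix. Many of the genes are induced by the transcription factor Hsf1 when cells are stressed, while others, Hspa8 among them, are expressed in unstressed cells.

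All 4 arrays were dim. Median brightness was 39.9 and 40.2 on the microvesicle arrays, against 41.1 and 41.2 on the control arrays. Between 3757 and 5272 probes were detected per array, where detected means a detection p-value under 0.05 against the negative controls of that array. The 95th percentile of brightness was 75.1 and 59.6 on microvesicle arrays 1 and 2, and 76.2 and 115 on control arrays 1 and 2, so before normalization microvesicle array 2 was the dimmest and control array 2 the brightest of the 4 at this percentile. The arrays lay on 1 chip, microvesicle samples at positions G and H and controls at A and B, and position and treatment cannot be told apart. Of 14 fibroblast marker genes on the array, 7 (Col1a2, Col3a1, Vim, Thy1, Dcn, Lum and Sparc) were detected on all 4 arrays and 4 (Col1a1, Pdgfra, Fap and Ddr2) on none. Of 18 cardiomyocyte markers, 13 were detected on no array and 0 on both arrays of either group. Of the 7 fibroblast genes that could be tested, Sparc rose at 1 of its 2 probes, ILMN_3136561 (1.76-fold, limma adjusted p = 0.0469). The groups overlapped there before normalization, and the other fibroblast probes did not pass. The 8 kept fibroblast probes did not share a direction, with 5 positive and 3 negative differences. The largest negative one was that of Col1a2 (log2 difference -0.75, limma adjusted p = 0.0528). Its brightness was 46.2 and 46.3 with microvesicles and 58.9 and 92.3 in controls. The summed normalized signal of the fibroblast probes above the offset was 2825 and 1933 with microvesicles and 1370 and 1535 in controls, and its part in the chaperone results was not tested. Most of this sum came from the 2 Sparc probes, with mean log2 signals of 10.2 and 9.65 with microvesicles and 9.38 and 8.83 in controls. The next brightest kept fibroblast probe, that of Vim, had means of 7.70 with microvesicles and 7.17 in controls. The summed normalized signal of the cardiomyocyte probes above the offset was 65.9 and 72.7 with microvesicles and 62.4 and 70.5 in controls.

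One probe of Hspa8 rose and the probe of Bag3 fell, and the other chaperone probes that could be tested did not pass. A probe was tested if it was detected on both arrays of at least 1 group. This kept 6 of the 13 probes (46.2%), for 5 genes, against 3762 of all 25697 (14.6%). Of these 6, 1 was higher and 1 was lower with microvesicles at a limma adjusted p under 0.05, which is 33.3% of the probes kept. Over all 3762 probes 7.55% were called, 3.43% higher (129 probes) and 4.12% lower (155 probes), and these counts were 76 and 277 when arrays were scaled to equal medians over the kept probes in place of quantile normalization (kept-probe median scaling). Under this scaling the fit gave the probes a common standard error of 0.299. Its p-values thus do not reflect each probe's own spread between arrays. The median log2 difference of the 6 probes was -0.25 (-0.15 with the probes not detected in 1 group set to their bound), beside -0.06 over all kept probes. Normalized groups did not overlap at 5 of the 6, beside 57.5% of all kept probes. Among these 5, Hspa8 ILMN_1260103, Hspd1 and Hspe1 entered the test through the controls alone, where they were brighter. The filter thus partly set their order, and neither this share nor the median is used as support. These probes are too few for a statement about the family.

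**Figure D1:**
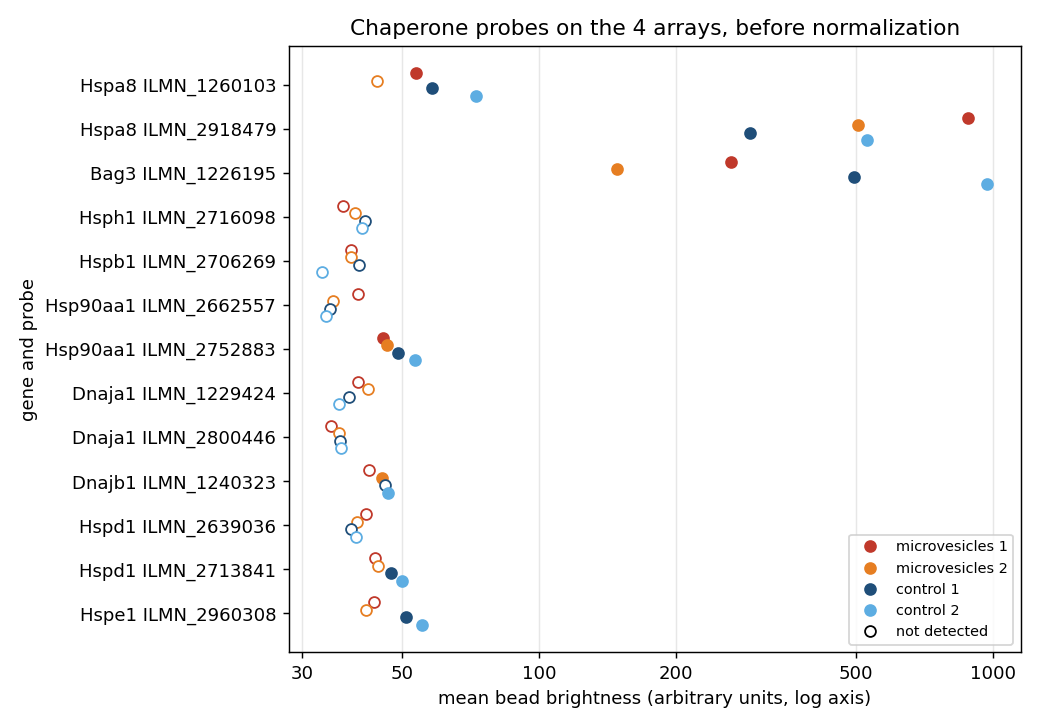
Mean bead brightness (horizontal log axis, arbitrary units, before normalization) of the 13 chaperone probes, 1 row per probe and 1 point per array, with open points where the probe was not detected. The groups overlap at Hspa8 ILMN_2918479, the Bag3 microvesicle arrays lie below both controls, and 6 probes are open on all 4 arrays.

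Hspa8 encodes Hsc70, the constitutively expressed Hsp70 of the cytosol, which also takes part in uncoating clathrin-coated vesicles and in chaperone-mediated autophagy. Its 2 probes are annotated to the same transcript and were measured separately. At probe ILMN_2918479 the brightness was 879 and 505 in microvesicle replicates 1 and 2, and 292 and 529 in control replicates 1 and 2. The standard error over the beads of each array was 28.1 and 19.1 with microvesicles and 14.4 and 21.4 in controls, from 33 to 44 beads. Before normalization the groups thus overlapped, since control replicate 2 was brighter than microvesicle replicate 2. In rank order they did not, and the probe was at least as bright as 99.73% and 99.66% of all probes on the microvesicle arrays and 98.96% and 98.88% on the control arrays.

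After normalization the log2 signal of this probe was 9.996 and 9.68 with microvesicles and 8.24 and 8.12 in controls. The mean was 9.84 ± 0.22 with microvesicles and 8.18 ± 0.08 in controls (SD, n = 2). The log2 difference was 1.66 (SE 0.19, 95% interval 1.22 to 2.10, limma adjusted p = 0.00485), a 3.16-fold rise. Of 3762 probes it ranked 26 by size of the difference and 17 by p-value. The difference was 1.68 in the submitters' processed values (limma adjusted p = 0.00189), 1.29 under kept-probe median scaling (limma adjusted p = 6.4e-04) and 0.85 when medians over all 25697 probes were made equal (all-probe median scaling, limma adjusted p = 0.467).

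The other Hspa8 probe, ILMN_1260103, was near the detection limit and gave a difference of opposite sign. Its brightness was 53.6 and 44.0 with microvesicles, the second value not detected (detection p-value 0.0789), and 58.0 and 72.5 in controls. Both microvesicle arrays lay below both controls, also after normalization. The probe entered the test through the controls alone, where it was brighter, and this order is not used as support. The normalized log2 signal averaged 4.70 ± 0.40 with microvesicles and 5.13 ± 0.05 in controls (SD, n = 2). The log2 difference was -0.43 (SE 0.22, 95% interval -0.95 to 0.09, limma adjusted p = 0.278) and did not pass. Leaving out microvesicle replicate 1 gave -0.73, leaving out microvesicle replicate 2 gave -0.16, and the value was -0.21 under kept-probe median scaling. The intervals of the 2 probes do not overlap, and the difference between the probes was not tested. Where either probe lies in the transcript was not analysed here, and Hspa8 has close relatives in sequence whose transcripts a probe could also bind.

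**Figure D2:**
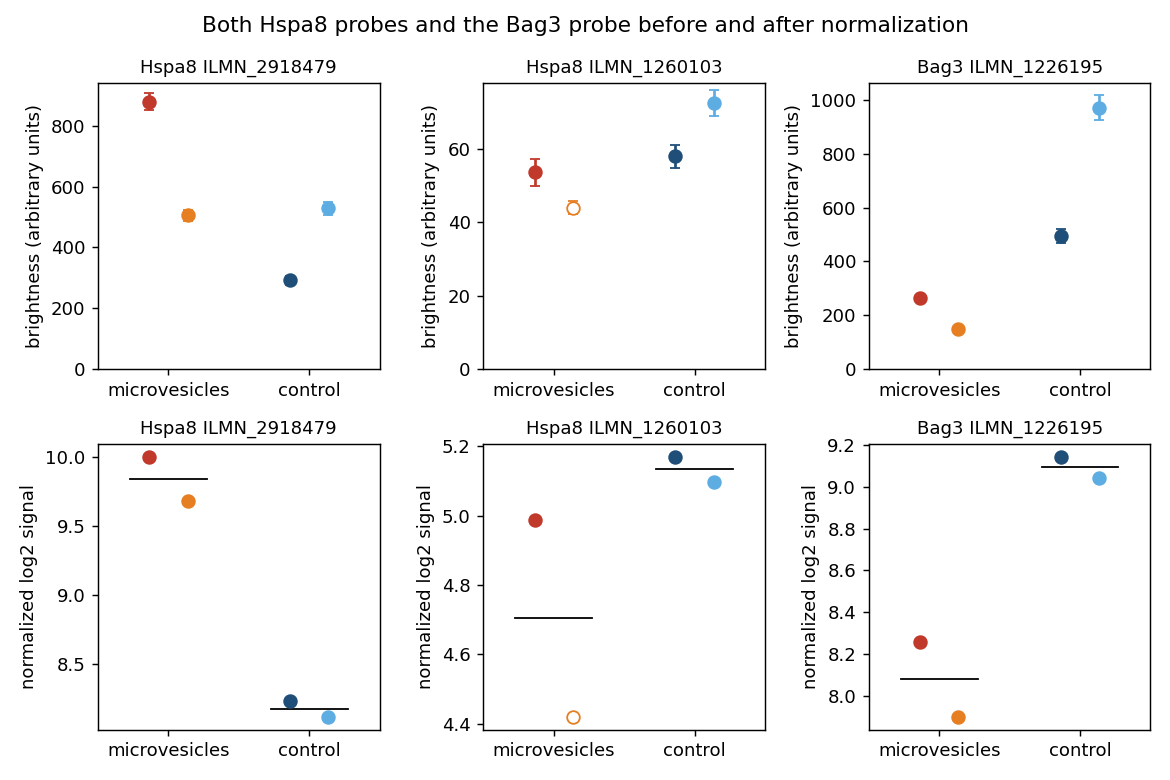
Brightness before normalization (upper row, bars are the standard error over beads) and normalized log2 signal (lower row, lines are group means, axes not starting at 0) of both Hspa8 probes and the Bag3 probe, with 2 microvesicle arrays left of 2 control arrays in each panel and an open point where the probe was not detected. Normalization separated the groups at Hspa8 ILMN_2918479 (9.68 and 9.996 against 8.12 and 8.24), while the Bag3 groups were apart in both rows.

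The 3 kept probes of other genes with the pattern most like that of Hspa8 ILMN_2918479, by root mean square distance between their 4 mean-centred log2 signals, out of 3533 candidates, were those of Ppp1ca, a catalytic subunit of protein phosphatase 1 (distance 0.068, log2 difference 1.59), Calr, a lectin chaperone of the endoplasmic reticulum (0.092, log2 difference 1.59), and Igfbp6, which binds insulin-like growth factors (0.097, log2 difference 1.73). At Ppp1ca too the brightness before normalization overlapped, with 357 and 175 in microvesicle samples and 129 and 224 in controls.

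Bag3 encodes a co-chaperone that binds Hsp70 proteins through its BAG domain, acts as a nucleotide exchange factor and takes part in the autophagy of damaged proteins, in muscle above all. Its single probe, ILMN_1226195, was detected on all 4 arrays. The brightness was 264 and 148 with microvesicles, against 495 and 972 in controls, and both microvesicle arrays lay below both control arrays. The bead standard error was 12.5 and 8.35 with microvesicles and 25.8 and 47.0 in controls. Normalized log2 signals were 8.26 and 7.90 with microvesicles and 9.14 and 9.04 in controls, with means of 8.08 ± 0.25 and 9.09 ± 0.07 (SD, n = 2). The log2 difference was -1.01 (SE 0.20, 95% interval -1.47 to -0.56, limma adjusted p = 0.0237), a 2.02-fold fall. It was -1.47 under kept-probe median scaling (limma adjusted p = 6.2e-05) and -1.91 under all-probe median scaling (limma adjusted p = 0.444). The first of these p-values rests on the common standard error of 0.299, larger than the 0.20 of the reported fit.

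With any 1 of the 4 arrays left out, 1 group holds a single array, and passing or not passing then says nothing about stability. Only the size of the difference is given for these fits. The log2 difference of Hspa8 ILMN_2918479 was 1.47 and 1.79 without microvesicle replicates 1 and 2, and 1.73 and 1.67 without control replicates 1 and 2. For Bag3 these values were -1.20 and -0.82 without microvesicle replicates and -0.98 and -1.05 without control replicates.

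The remaining Hsp70 partners gave little signal. Hsph1 encodes Hsp110, a nucleotide exchange factor of Hsp70 in the cytosol. Its brightness was 36.9 and 39.3 with microvesicles and 41.4 and 40.7 in controls, detected on no array. Dnaja1 and Dnajb1 encode J-domain proteins that stimulate the ATPase of Hsp70. Both Dnaja1 probes were detected on no array, ILMN_1229424 with 39.9 and 42.0 in microvesicle samples against 38.1 and 36.3 in controls, and ILMN_2800446 with 34.8 and 36.3 against 36.5 and 36.5. Dnajb1 had a brightness of 42.2 and 45.1 with microvesicles and 45.8 and 46.4 in controls, and was detected on 1 array of each group, the second replicate in both. It was thus not tested. At this brightness a difference in Hsph1, Dnaja1 or Dnajb1 was not detectable, and failure to detect a probe does not show that the transcript was absent.

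Hsp90aa1 encodes the inducible Hsp90 of the cytosol, which matures kinases and steroid hormone receptors among other clients. Its probe ILMN_2752883 was detected on all 4 arrays with a brightness of 45.3 and 46.3 in microvesicle samples and 48.8 and 53.2 in controls, the microvesicle arrays lower. After normalization the groups overlapped, at 4.48 and 4.65 with microvesicles against 4.61 and 4.63 in controls. The log2 difference was -0.05 (95% interval -0.46 to 0.36, limma adjusted p = 0.875), and it was 0.23 under kept-probe median scaling. An interval of this width at a dim probe leaves moderate changes undetected. The other Hsp90aa1 probe, ILMN_2662557, was detected on no array (39.8 and 35.2 with microvesicles, 34.6 and 33.9 in controls). Hspb1, a small heat shock protein that holds unfolded proteins without using ATP, was also detected on no array, with 38.5 and 38.4 in microvesicle samples and 40.2 and 33.3 in controls. The 6 probes detected on no array lay between 33.3 and 42.0 in brightness.

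Hspd1 encodes Hsp60 and Hspe1 its co-chaperonin Hsp10. These genes are neighbours on mouse chromosome 1 and are transcribed in opposite directions. Both were detected in control cells and in neither microvesicle sample, so that they entered the test through the controls alone, and neither passed it. Hspe1 had a brightness of 43.3 and 41.7 with microvesicles and 50.8 and 55.3 in controls, the microvesicle arrays below both controls. Its normalized log2 signal averaged 4.33 ± 0.06 with microvesicles and 4.72 ± 0.06 in controls (SD, n = 2). Since no microvesicle array detected it, the normalized means give only a bound, 1.19-fold lower with microvesicles, which is a point value without its uncertainty. The difference did not pass, and the 95% interval of the log2 difference, -0.80 to 0.01, included 0 (limma adjusted p = 0.213). Under kept-probe median scaling the log2 difference was -0.04 (limma adjusted p = 0.949), so that no minimum change is claimed for Hspe1. The bound sets the control mean against the lowest signal of any detected probe on each dim array, or the probe's own where higher. Hspd1 at probe ILMN_2713841 had 43.5 and 44.1 with microvesicles and 47.2 and 49.97 in controls, again apart before normalization. Its log2 difference had an interval of -0.51 to 0.29, which includes 0 (limma adjusted p = 0.718), and under kept-probe median scaling its sign was positive, at 0.25, so that no direction is given for it. The other Hspd1 probe, ILMN_2639036, was detected on no array (41.6 and 39.8 with microvesicles, 38.5 and 39.4 in controls).

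**Figure D3:**
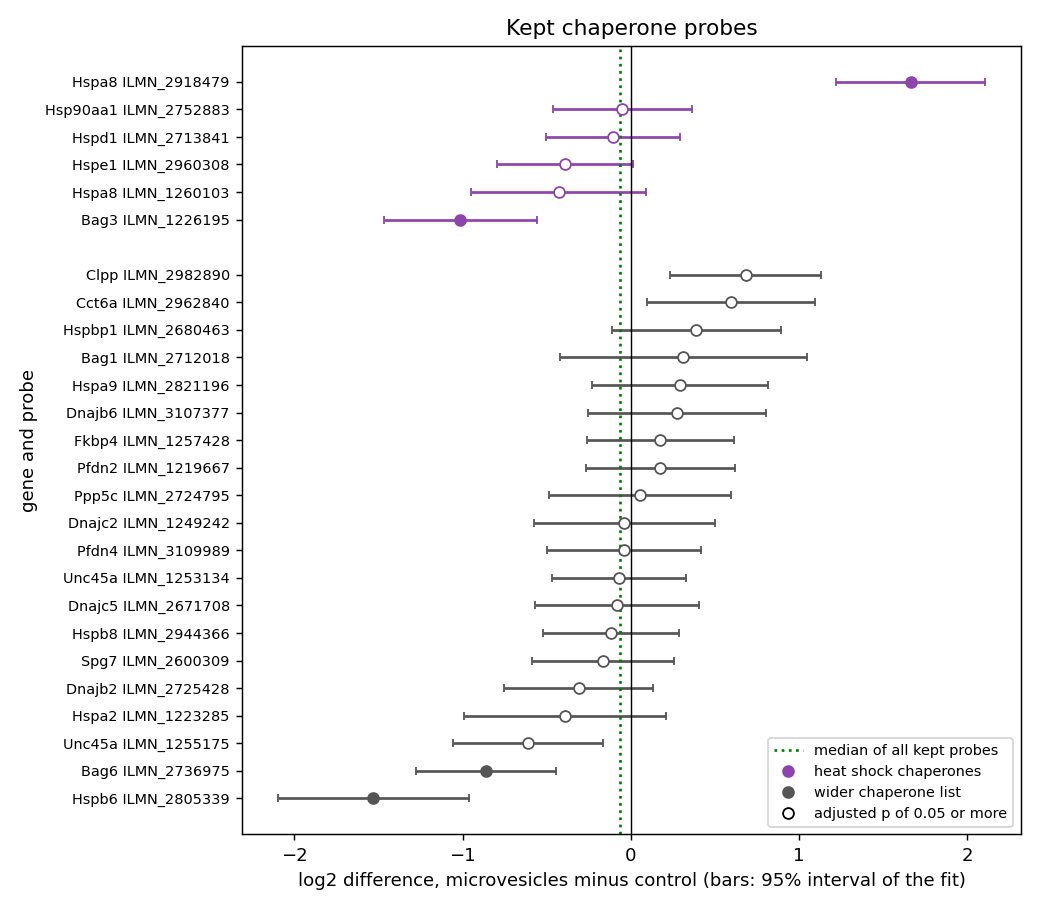
Log2 difference, microvesicles minus control (horizontal axis, bars are the 95% interval of the limma fit), of the 6 kept heat shock chaperone probes (upper block) and the 20 kept probes of the wider chaperone list (lower block), filled where the adjusted p is under 0.05, with the median of all kept probes as a dotted line at -0.06. Hspa8 ILMN_2918479 is the 1 filled point right of 0 and Bag3, Bag6 and Hspb6 are the filled points left of it.

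Heat shock factor binds inverted repeats of GAA, and 2 short forms of this element, GAANNTTC and TTCNNGAA, were looked for from 250 bases before to 50 bases after the annotated starts in RefSeq (GRCm38.p6). Each form is its own reverse complement, so 1 strand covers both, and overlapping matches of the 2 forms were counted. Of the 10 genes, 7 had such a window, and Hspa8, Hsp90aa1 and Hsp90ab1 had none in the table. Bag3, Hsph1, Hspb1, Dnaja1, Hspd1 and Hspe1 had a match in at least 1 window and Dnajb1 did not (7 of 12 windows), beside 15.1% of all 32851 windows. The windows of Hsph1 overlapped and held the same matches, so the windows counted are not independent. Runs of 3 alternating units at the same spacing, which contain both short forms, were found in Hsph1, Hspd1 and Hspe1, and in 0.603% of all windows. Shown are the match of Bag3, the called gene with a window, and that of Hspe1, which lies in a stretch shared with 1 of the windows of Hspd1. Capitals mark the matches.
Bag3, chr7:128523603-128523632, plus strand, from 21 to 50 bases after the start: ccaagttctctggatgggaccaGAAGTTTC
Hspe1, chr1:55088028-55088107, plus strand, from 120 to 41 bases before the start: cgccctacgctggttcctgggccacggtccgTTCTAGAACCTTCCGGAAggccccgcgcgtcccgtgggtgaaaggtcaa
The match of Bag3 lay after its start, and those of Hspe1 overlapped each other in 1 run. Genes with a match thus included Bag3, which fell, Hspe1 and Hspd1, which did not pass, and Hsph1, Hspb1 and Dnaja1, which were not detected. A match is a description of the sequence and no measurement of binding.

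The wider chaperone system was read from a list of 86 genes in 7 classes, of which 76 were on the array, 19 could be tested (20 probes) and 41 were detected on no array. Of the 19 genes, 0 rose, 2 fell and 17 did not pass, which is 10% of the 20 probes, beside 7.55% of all probes. Before adjustment, 5 of the 20 probes had a limma p under 0.05, beside 932 of all 3762 kept probes. The median log2 difference of the 20 probes was -0.04, and their range was -1.53 to 0.68.

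Hspb6, a small heat shock protein known best from muscle, fell. Its brightness was 72.0 and 68.0 with microvesicles and 212 and 296 in controls, with both microvesicle arrays well below both controls. The normalized log2 signal averaged 5.97 ± 0.36 with microvesicles and 7.50 ± 0.33 in controls (SD, n = 2). The log2 difference was -1.53 (SE 0.25, 95% interval -2.10 to -0.96, limma adjusted p = 0.0127). It was -2.26 under all-probe median scaling, where the call was lost (limma adjusted p = 0.444), and -1.83 to -1.30 without any 1 of the 4 arrays. Hspb8, a small heat shock protein that works together with Bag3, was the only other kept gene of its class, detected on 1 microvesicle array, and did not pass (log2 difference -0.12, limma adjusted p = 0.686, and 0.26 under kept-probe median scaling). The other 6 small heat shock genes were detected on no array.

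Bag6, a co-chaperone that guides membrane and misfolded proteins in the cytosol, was the other gene that fell. Its brightness was 68.0 and 53.6 with microvesicles and 102 and 155 in controls, and the groups did not overlap. The log2 difference was -0.86 (SE 0.18, 95% interval -1.28 to -0.45, limma adjusted p = 0.0313). This call too was lost under all-probe median scaling (-1.44, limma adjusted p = 0.444). Without any 1 of the 4 arrays the difference of Bag6 was -0.94 to -0.79. The other 6 kept Hsp70 co-chaperone genes did not pass, and among them Hspbp1, a nucleotide exchange factor, had the largest difference (0.39, limma adjusted p = 0.304), which was -0.31 under all-probe median scaling and 0.15 to 0.56 without any 1 array. Bag1, of the same domain family as Bag3, had a log2 difference of 0.31 with an interval of -0.42 to 1.05. This difference was -0.19 under all-probe median scaling and -0.16 to 0.80 without any 1 array.

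In the classes where no gene passed, the largest differences were those of Clpp, a protease of the mitochondrial matrix (0.68, limma adjusted p = 0.077), Unc45a, an Hsp90 partner needed for folding myosin (-0.61 on probe ILMN_1255175, limma adjusted p = 0.0991, and -0.07 on its other kept probe), Cct6a, a subunit of the cytosolic chaperonin (0.59, limma adjusted p = 0.14), and Hspa2, an Hsp70 of the testis (-0.39, limma adjusted p = 0.385). Unc45a passed at ILMN_1255175 under kept-probe median scaling (-0.91, limma adjusted p = 0.0304), and Clpp passed with the replicate numbers crossed as a block, a pairing chosen after seeing the data (limma adjusted p = 0.0488). Cct6a had a negative difference, -0.27, under all-probe median scaling. The Hspa2 probe was detected on 1 microvesicle array and both controls, and ranged from -0.45 to -0.01 over the other settings with all 4 arrays. A second Hspa2 probe was not tested, with mean log2 signals of 4.49 with microvesicles and 4.40 in controls. Hspa9, the Hsp70 of the mitochondrial matrix, had a log2 difference of 0.29 (limma adjusted p = 0.445). Over the other settings with all 4 arrays Hspa9 ranged from -0.002 to 0.44 and Clpp from 0.08 to 0.69. None of the 3 genes of the heat shock factor class on the array (Hsf2, Hsf4 and Hsbp1) could be tested, and 2 of them were detected on no array. No probe carried the symbol Hsf1, so this factor was not measured here.

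**Figure D4:**
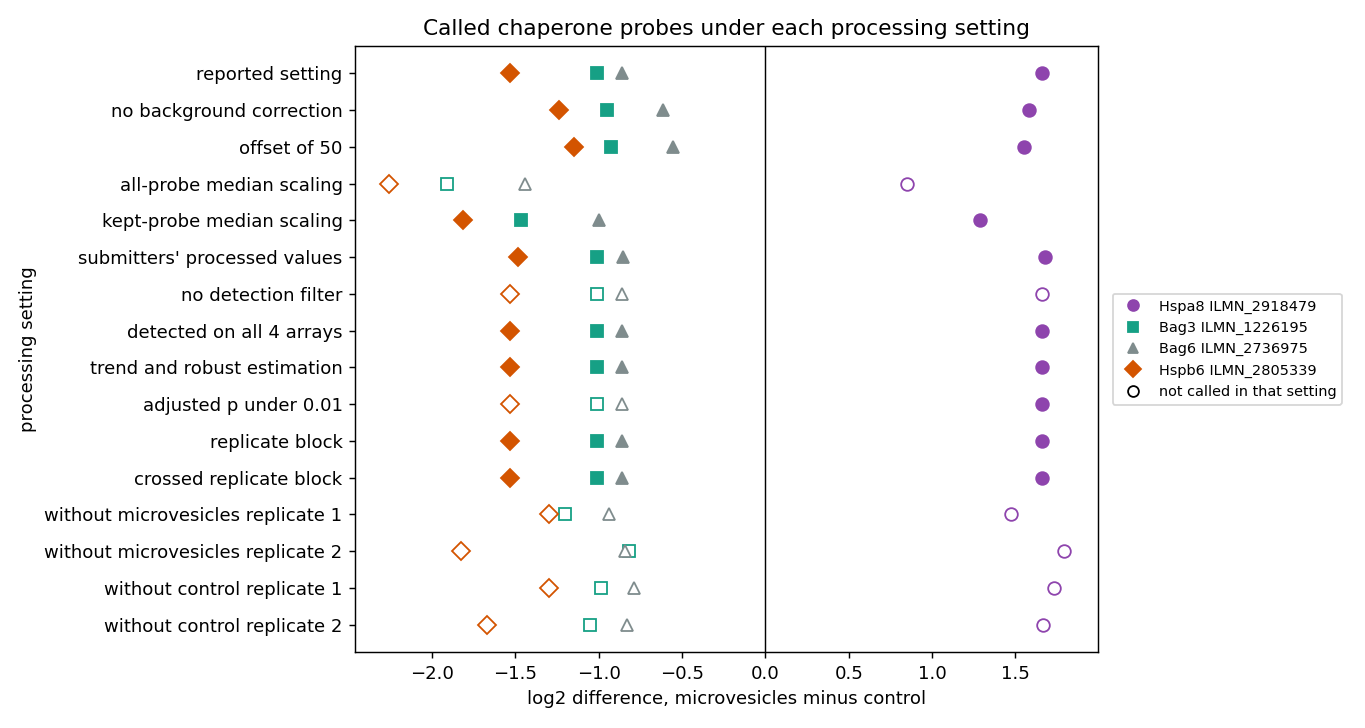
Log2 difference, microvesicles minus control (horizontal axis), of the 4 chaperone probes called in the reported setting, 1 row per processing setting, with open symbols where the probe was not called in that setting. Hspa8 ILMN_2918479 lies right of 0 (0.85 to 1.79) and Bag3, Bag6 and Hspb6 lie left of 0 in every row. All 4 are open under all-probe median scaling, without a detection filter and when any 1 array is left out. In the last case 1 group holds a single array, and open symbols there say nothing about stability.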

How the data were processed

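Total RNA of 4 samples was amplified and read on Illumina bead arrays in the Cy3 channel, with BeadStudio 3.3 per the submitters' processing notes. The deposited intensity values are mean bead brightness per probe, without background subtraction or normalization between arrays, and the deposited detection p-value sets each probe against the negative controls of its array. The deposited processed intensity values were background-subtracted and normalized by a method not given in the sources used here, and served as an alternative. In R 4.3.3 with limma 3.58.1, neqc inferred the background from detection p-values, then quantile normalized the arrays with an offset of 16 and took log2. The offset compresses differences of dim probes. Group differences were fitted over 3762 kept probes with lmFit and eBayes, two-sided, Benjamini-Hochberg adjusted. With 2 arrays a group the smallest exact two-sided permutation p would be 0.333. Platform annotation gave 23978 probes a symbol and 1719 none. The Entrez identifiers of 23962 were found in RefSeq (GRCm38.p6) and 0 symbols differed. The chaperone genes and lists were chosen with earlier results of these data known. Genes outside the 10 were named if they passed, or, per class with none, for the largest difference, and Hspb8, Hspbp1, Bag1, Hspa9 and Sparc were added after their values were seen. The fit was also run on simulated data drawn from its own variance model, which cannot test how well that model describes these arrays.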

Additional observations from a re-analysis of the deposited data

How the results depend on the processing

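Against 2 changed chaperone probes of 6, 284 changed probes over all genes and 2 changed genes of the wider chaperone list, the counts were 0, 0 and 0 under all-probe median scaling (1, 398 and 2 probes at an unadjusted limma p under 0.05), 0, 29 and 0 with no detection filter (3, 1938 and 7 unadjusted), 1, 67 and 0 at adjusted p under 0.01, and 2, 593 and 2 with trend and robust estimation. With 1 array left out they were 0 to 0, 0 to 10 and 0 to 0, over 4600 to 5464 probes. The remaining array of the reduced group is then taken to vary as the other group does, and these counts say nothing about stability. Under kept-probe median scaling 21.5% of calls over all genes were higher, against 45.4%, and the fit used a common standard error for the probes. The median log2 difference of the kept probes was -0.39 under all-probe and 0.05 under kept-probe median scaling, against -0.06, and the cause of the lost calls was not tested. The replicate numbers were not taken as pairs, since the labels name nothing shared and the replicate differences of the 2 groups correlated across probes at -0.13. With the replicate number as a block 313 probes changed, 2 of them chaperone probes. With the numbers crossed, a pairing chosen after seeing the data, 396 and 2 changed, and the wider list had 3 changed genes, with Clpp added, as it did under kept-probe median scaling, with Unc45a added. Hspa8 ILMN_2918479, Bag3, Bag6 and Hspb6 kept their direction in the 5 settings that recomputed the signal. In the other 6 the difference is fixed and only its error or threshold changed.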
